A study of Mus musculus with 4 samples.

Results

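The fibrillar collagens are the chains that assemble into the striated fibrils of connective tissue, and 7 of their genes were followed here across cultures given a compound called R or its solvent. They were chosen by name from a table of 54532 genes, and are the major chains Col1a1, Col1a2 and Col3a1 and the minor chains Col5a1, Col5a2, Col5a3 and Col11a1. Col2a1, the type II chain of cartilage, was left out of the choice. All 7 passed a filter on low values, a mean of at least 1 FPKM, as did 12176 genes in all. FPKM is a read abundance scaled to the length of the gene and the size of the library. The cells, labelled MSCs, were isolated from bone marrow of CB6F1 mice, an F1 hybrid strain, by digestion, and were then cultured in high-glucose medium with serum. R was given in vitro at 0.5 µM (the labels write "um") to 2 cultures, and DMSO as vehicle to the other 2. All 4 sample titles carry the term aGVHD, and R is not named further in the labels. The labels do not tell whether replicates are separate animals or repeat samples of the same cells. The p-values therefore measure the spread between these samples alone, which may be technical.

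Type I collagen pairs α1 chains from Col1a1 with an α2 chain from Col1a2, and it makes up the bulk of the fibrils of bone and skin. Type III collagen is built from Col3a1 alone and joins type I in soft tissue and in the reticular fibres of bone marrow. Type V chains are present in small amounts, start fibril assembly and limit fibril width, and the type XI chain Col11a1 plays the same part in cartilage and can mix with type V chains. Marrow stromal cells and osteoblasts are known producers of these chains.

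Reads recovered from the FPKM values and gene lengths came to 16534440 to 18085183 per library. These sums leave out genes without whole reads in all 4 libraries, so they are less than the full libraries. All 7 chains came out as whole reads. The smallest read count behind a chain was 329, for Col5a3 in vehicle replicate 2. Macrophage markers were abundant in a culture labelled MSCs. The summed level of 15 markers was 15848 and 12163 FPKM in R replicates 1 and 2, against 23222 and 20781 FPKM in vehicle replicates 1 and 2. None of the 15 was at 0. Most of each sum was Lyz2, at 8891 and 7061 FPKM in R, against 14569 and 12540 FPKM in vehicle. Lyz2 was not called (limma, Benjamini-Hochberg adjusted p = 0.321). The log2 fold change was below 0 for all 15, its median was -0.59, and Itgam, Fcgr1 and Ctss fell (adjusted p = 0.0346 for Itgam, adjusted p = 0.00728 for Fcgr1 and adjusted p = 0.0331 for Ctss, limma with Benjamini-Hochberg adjustment). Itgam was no longer called with vehicle replicate 1 left out (adjusted p = 0.188, limma) or on the TPM scale (adjusted p = 0.0676, limma), nor Ctss with vehicle replicate 1 or 2 left out (adjusted p = 0.21 or adjusted p = 0.105, limma). The 12 mesenchymal stromal markers summed to 688 and 774 FPKM in R and to 778 and 747 FPKM in vehicle. Cxcl12 made up most of each sum, at 462 and 514 FPKM in R, against 517 and 493 FPKM in vehicle. Of the 10 tested, 7 had log2 fold changes above 0, beside 50% of all tested genes, and the median was 0.13. Both R libraries lay above both vehicle libraries for 5 and below for 1, beside 22.7% above among all tested genes. Ly6a, a surface antigen of stromal and blood stem cells, was the only one called, lower in R. Pdgfrb was at 60.3 and 68.9 FPKM in R, against 40.4 and 44.2 FPKM in vehicle, and was not called. Osteoblast markers summed to 1085 and 963 FPKM in R and to 1527 and 1461 FPKM in vehicle, nearly all of it Spp1. Of the 7 tested 0 were called, with 3 log2 fold changes above 0, 4 below 0 and a median of -0.02. Of 8 neutrophil markers and of 8 T and NK cell markers, 5 each were at 0 in every library, among them Elane, Mpo, Cd3e and Cd8a. In each list 1 gene passed the filter, and neither was called. Camp was at 1.85 and 1.24 FPKM in R, against 1.12 and 1.25 FPKM in vehicle. Cd4 was at 6.35 and 6.57 FPKM in R, against 8.14 and 8.13 FPKM in vehicle. The part of these cell types in the collagen values was not tested. In such bulk RNA, fewer cells of a type and less RNA per cell cannot be told apart.

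In the GRCm38 annotation of GENCODE M21 the chains are spread over 6 chromosomes. Col1a1 (ENSMUSG00000001506) spans positions 94936224 to 94953042 of chromosome 11 and Col1a2 (ENSMUSG00000029661) positions 4504814 to 4541544 of chromosome 6. Col3a1 (ENSMUSG00000026043) spans 45311538 to 45349706 of chromosome 1, on the plus strand, and Col5a2 (ENSMUSG00000026042) spans 45374321 to 45503282 on the minus strand. These neighbours end towards each other with 24614 bases between them. Col5a1 (ENSMUSG00000026837) lies at 27886425 to 28039514 of chromosome 2, Col5a3 (ENSMUSG00000004098) at 20770050 to 20815067 of chromosome 9 and Col11a1 (ENSMUSG00000027966) at 114030540 to 114220718 of chromosome 3. Each value is a sum over the exons of a gene. Col5a1 overlaps 2 annotated genes of the opposite strand with at most 2.49 FPKM, and the strandedness of the counting is not given in the sources used here.

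The RefSeq promoter table (GRCm38.p6, 250 bases before to 50 after the start) held 5 of the 7 genes. Windows of 3 of them are shown because their log2 fold changes in R were of unlike size: Col5a3, the chain called higher, Col1a2, a type I chain, and Col3a1, the chain that differed least. They lie at chr9:20815018-20815317 (minus strand), chr6:4505368-4505667 (plus strand) and chr1:45311288-45311587 (plus strand). Capitals mark CCAAT, read on either strand, and TATAAA.
Col5a3: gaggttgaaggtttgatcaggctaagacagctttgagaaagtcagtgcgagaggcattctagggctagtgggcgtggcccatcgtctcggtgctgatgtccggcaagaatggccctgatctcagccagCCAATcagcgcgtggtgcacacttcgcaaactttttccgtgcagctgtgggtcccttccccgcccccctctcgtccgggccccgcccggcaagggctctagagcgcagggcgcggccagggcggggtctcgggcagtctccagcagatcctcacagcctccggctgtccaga
Col1a2: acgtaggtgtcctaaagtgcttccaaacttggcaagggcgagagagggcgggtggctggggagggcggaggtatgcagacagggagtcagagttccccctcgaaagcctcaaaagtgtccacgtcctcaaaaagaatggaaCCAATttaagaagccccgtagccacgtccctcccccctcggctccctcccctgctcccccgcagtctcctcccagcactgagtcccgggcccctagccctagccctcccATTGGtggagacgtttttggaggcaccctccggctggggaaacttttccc
Col3a1: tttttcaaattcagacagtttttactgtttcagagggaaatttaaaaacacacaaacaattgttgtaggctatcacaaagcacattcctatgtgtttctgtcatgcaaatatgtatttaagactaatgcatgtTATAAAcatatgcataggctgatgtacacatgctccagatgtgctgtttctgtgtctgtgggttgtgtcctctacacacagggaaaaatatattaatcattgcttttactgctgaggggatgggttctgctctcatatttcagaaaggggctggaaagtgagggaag
The Col3a1 window differed in base composition, with 37.7% G and C and 0 CpG, against 63.3% and 20 CpG in the Col5a3 window and 61% and 13 CpG in that of Col1a2. Over all 32851 windows of the table the medians were 52.7% and 7 CpG. CCAAT, the letters read by NF-Y, occurred on either strand in the Col5a3, Col1a2 and Col11a1 windows but not in those of Col3a1 and Col5a1, and in 37.4% of all windows. TATAAA, the letters of the TATA box, occurred on either strand in the Col3a1 window only among the 5 genes, and in 13.6% of all windows. It began there at position -117 from the annotated start. The CCAAT matches of the Col1a2 window began at -109 and 1. Letters outside the windows were not searched, so absence from a window is not absence from a promoter. GGGCGG, the GC box read by Sp1, occurred on either strand in each of the 5 windows except that of Col3a1, and in 35.7% of all windows. CAGAC, the core of the CAGA box read by SMAD3 and SMAD4, occurred on either strand in each of the 5 windows except that of Col5a3, and in 49.6% of all windows. Matches of different motifs did not overlap, and a match is a description of letters, not of binding.

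The chains spanned a wide range of levels and kept one order in all 4 libraries: Col1a1, Col1a2, Col3a1, Col5a2, Col5a1, Col11a1, Col5a3, from high to low FPKM. Neighbours in this order did not overlap within either group. Together the 7 chains summed to 1823 and 1862 FPKM in R, against 1276 and 1298 FPKM in vehicle, a 1.43-fold higher mean. They took 1.71 and 1.82% of recovered reads in R, against 1.19 and 1.22% in vehicle. The major chains made up 84.1 and 82.0% of the FPKM sum in R and 83.9 and 83.4% in vehicle.

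**Figure D1:**
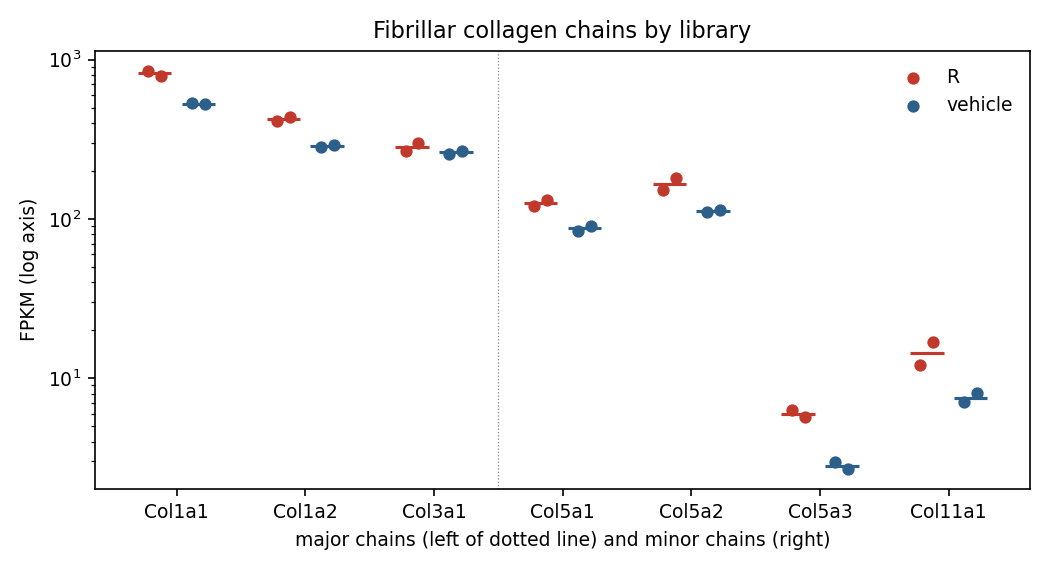
FPKM of each chain in each library on a log axis, with R in red, left, and vehicle in blue, right; points are libraries and lines are means of 2. Every chain lies higher in both R libraries, by the least for Col3a1, where R replicate 1 and vehicle replicate 2 were at 266.4 and 266.3 FPKM.

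Comparing R with vehicle answers which chains differ in level after the compound. Col5a3 was the only chain that rose at an adjusted p under 0.05, and the other 6 did not pass the test on the deposited scale; Col1a1 was called as well under 2 other scalings given with its values. Both R libraries lay above both vehicle libraries for 7 of 7 chains, as they did for 22.7% of all tested genes. At an adjusted p under 0.05 the share of tested genes called higher was 0.345%, which is 42 genes, beside 167 called lower. At an unadjusted p under 0.05, 6 chains were higher, all but Col3a1, as were 7.16% of tested genes. The median log2 fold change was 0.56 over the 7 chains and 0.00 over all 12176 tested genes, on the log2(FPKM + 1) scale used for every fold change given as log2. Rescaling each library to TPM moved the median of all genes to 0.13 and gave 58 genes higher and 124 lower, and a correction for a gene length trend gave 222 and 349.

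Col1a1 was at 852 and 795 FPKM in R replicates 1 and 2, against 532 and 526 FPKM in vehicle replicates 1 and 2. The lowest R library was thus well above the highest vehicle library, and Col1a1 ranked 31 and 29 among tested genes in R, against 70 and 67 in vehicle. The mean ± SD over 2 libraries each was 823 ± 40.9 FPKM in R, against 529 ± 4.73 FPKM in vehicle, and the log2 fold change of 0.64 had a 95% interval of 0.21 to 1.06 (limma, Benjamini-Hochberg adjusted p = 0.156). Col1a1 passed on the TPM scale (adjusted p = 0.0404, limma), where 0.476% of tested genes were called higher, and after quantile normalization (adjusted p = 0.014, limma), where 0.509% were. Col1a2, the partner chain, was at 414 and 434 FPKM in R, against 282 and 291 FPKM in vehicle. Its groups did not overlap either. Its log2 fold change was 0.56, with a 95% interval of 0.18 to 0.94 (limma, Benjamini-Hochberg adjusted p = 0.157).

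Col3a1, the type III chain, was at 266 and 299 FPKM in R, against 257 and 266 FPKM in vehicle. The groups were separated by less than the gap within either, and after quantile normalization they overlapped, the only chain of the 7 for which this was so. The means ± SD over 2 libraries each were 282 ± 22.8 FPKM in R, against 262 ± 6.66 FPKM in vehicle. The log2 fold change was 0.11, with a 95% interval of -0.27 to 0.49 (limma, Benjamini-Hochberg adjusted p = 0.789). The interval includes 0, and its upper bound lies below the fold change of every other chain.

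Among the type V chains, Col5a1, which every common form of type V collagen contains, was at 120 and 131 FPKM in R, against 83.9 and 90.6 FPKM in vehicle. Col5a2, its usual partner, was at 152 and 181 FPKM in R, against 111 and 114 FPKM in vehicle. Both chains had groups that did not overlap. Their log2 fold changes were 0.52 and 0.56, with 95% intervals of 0.18 to 0.86 and 0.19 to 0.93 (adjusted p = 0.149 for Col5a1 and adjusted p = 0.157 for Col5a2, limma).

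Col5a3, a type V chain found in fewer tissues than the others, was at 6.29 and 5.71 FPKM in R, against 2.96 and 2.69 FPKM in vehicle. These values rested on 826 and 703 reads in R, against 355 and 329 in vehicle. The counting error alone gave exact Poisson 95% intervals of 5.29 to 6.15 FPKM in R replicate 2, the lower R library, and 2.66 to 3.28 FPKM in vehicle replicate 1, the higher vehicle library. Intervals here cover counting error only. The mean was 2.12-fold higher in R, while the log2 fold change was 0.87 (SE 0.127; limma, Benjamini-Hochberg adjusted p = 0.0388), because adding 1 to each value understates the change of genes at low levels. With a pseudocount of 0.1 it was 1.06. Leaving out vehicle replicate 2 ended the call (adjusted p = 0.0796, limma), as did testing without a filter on low values (adjusted p = 0.18, limma).

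Col11a1, the type XI chain, was at 12.1 and 16.8 FPKM in R, against 7.06 and 8.05 FPKM in vehicle. The R libraries differed most from each other for this chain, which had 2972 and 3884 reads in them, against 1587 and 1840 in vehicle. The log2 fold change was 0.84, with a 95% interval of 0.40 to 1.28 (limma, Benjamini-Hochberg adjusted p = 0.097). Against the vehicle mean it was 0.62 in R replicate 1 and 1.06 in R replicate 2. Col11a1 passed with voom on recovered reads (adjusted p = 0.0439, limma), a fit that called 0.718% of its genes higher, and with the gene length correction (adjusted p = 0.0215, limma).

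**Figure D2:**
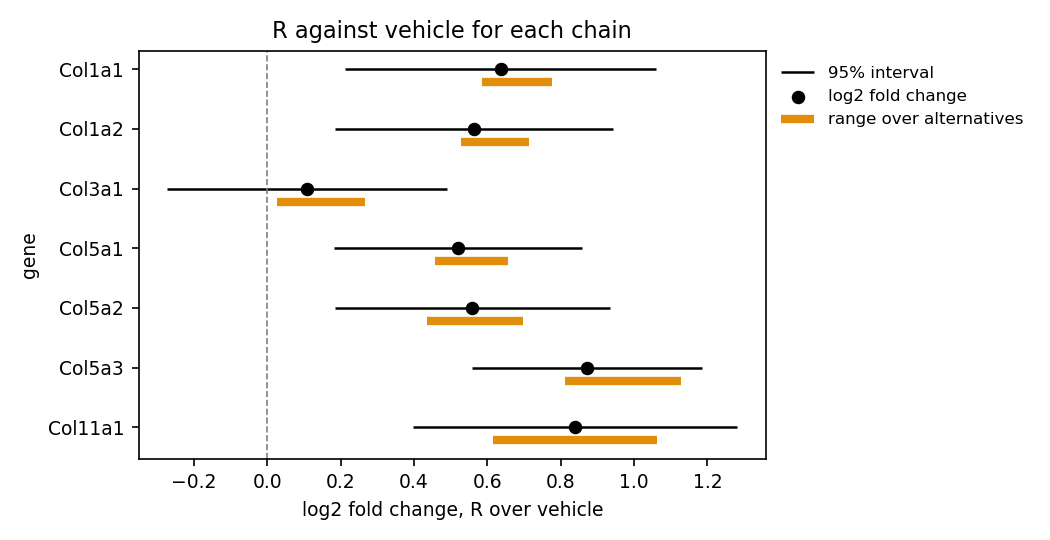
Log2 fold change of R over vehicle for each chain (black point) with its 95% limma interval (black line), and the range of the fold change over the alternatives (orange). The interval includes 0 for Col3a1 alone, and the largest fold changes are those of Col5a3, 0.87, and Col11a1, 0.84.

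The calls of the chains depended on single libraries more than their fold changes did. Without R replicate 1, limma called 6 of 7 chains higher, all but Col3a1, and without R replicate 2 it called Col1a1, Col1a2 and Col5a3. Such a fit assumes that the lone R library varies like the vehicle libraries. Without vehicle replicate 1 only Col5a3 was called, and without vehicle replicate 2 only Col11a1. The number of genes called over the whole table moved as well, to 312 higher and 665 lower with R replicate 1 left out and 438 and 410 with R replicate 2 left out. Leaving out vehicle replicate 1 gave 96 and 193, and leaving out vehicle replicate 2 gave 150 and 259. No chain changed sign in any of 15 alternatives (14 for Col5a3).

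Gene length moved with the libraries, and the chains are long, with union exon lengths of 6563 to 12744 bases. For the 2951 tested genes of at least 6563 bases, the median difference from the vehicle mean was -0.09 in R replicate 1 and 0.12 in R replicate 2 on the log2 scale. Over both it was 0.02. With the length trend removed, a correction chosen after the data were seen, the log2 fold changes were 0.63 for Col1a1, 0.53 for Col1a2, 0.08 for Col3a1, 0.50 for Col5a1, 0.54 for Col5a2, 0.86 for Col5a3 and 0.81 for Col11a1. Limma then called 5 chains higher, all but Col1a2 and Col3a1, where 1.82% of tested genes were called higher.

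Set against each other, the minor chains were higher relative to the major chains in R, but on the log2(FPKM + 1) scale this rested largely on Col3a1. The mean log2(FPKM + 1) of the 4 minor chains was 5.19 and 5.36 in R, against 4.55 and 4.60 in vehicle. That of the 3 major chains was 8.83 and 8.88 in R, against 8.40 and 8.43 in vehicle. The minor minus the major mean was -3.64 and -3.51 in R, against -3.85 and -3.83 in vehicle, a difference of 0.26 in favour of the minor chains, which is larger than the pooled SD of 0.067 between replicates. Leaving out Col3a1, a step chosen after its values were seen, reduced the difference to 0.10 and the groups then overlapped. Leaving out any other chain in turn gave 0.20 to 0.36, with groups that did not overlap. Adding 1 lowers the log2 fold changes of Col5a3 and Col11a1, which were 1.09 and 0.92 without it. Chains were not left out in turn without the added 1, so the overlap is given for this scale only. On the linear scale, where abundant chains weigh most, the minor chains held 15.9 and 18.0% of the FPKM sum in R. In vehicle they held 16.1 and 16.6%, and the groups overlapped.

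Ratios of single chains moved most where Col3a1 or Col5a3 was one of the pair. The FPKM ratio of Col1a1 to Col3a1 was 3.20 and 2.66 in R, against 2.07 and 1.97 in vehicle. That of Col1a2 to Col3a1 was 1.55 and 1.46 in R, against 1.10 and 1.09 in vehicle. That of Col5a2 to its neighbour Col3a1 was 0.571 and 0.606 in R, against 0.432 and 0.427 in vehicle. Col3a1 made up 14.6 and 16.0% of the FPKM sum of the 7 chains in R, against 20.1 and 20.5% in vehicle. The groups overlapped for 5 of the ratios, both within a collagen type and across types. The ratio of Col1a1 to Col1a2 was 2.06 and 1.83 in R and 1.89 and 1.80 in vehicle, and that of Col5a1 to Col5a2 was 0.789 and 0.724 in R and 0.757 and 0.797 in vehicle. Across types, that of Col5a1 to Col1a1 was 0.141 and 0.165 in R and 0.158 and 0.172 in vehicle, that of Col5a2 to Col1a1 was 0.178 and 0.228 in R and 0.208 and 0.216 in vehicle, and that of Col11a1 to Col1a1 was 0.0142 and 0.0212 in R and 0.0133 and 0.0153 in vehicle. The mean ratios of the minor chains Col5a1 and Col5a2 to Col1a1 were lower in R, within that overlap. The groups were apart for the ratio of Col5a3 to its type V partner Col5a1, 0.0524 and 0.0435 in R, against 0.0352 and 0.0297 in vehicle. They were also apart for that of Col11a1 to Col5a1, 0.101 and 0.129 in R, against 0.0841 and 0.0889 in vehicle. Of 12 ratios computed, 7 had groups that did not overlap, each at the smallest p an exact two-sided permutation test of 2 against 2 libraries can give, p = 0.333 (0.571 after Benjamini-Hochberg adjustment over the 12). No ratio could therefore pass a threshold of 0.05.

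**Figure D3:**
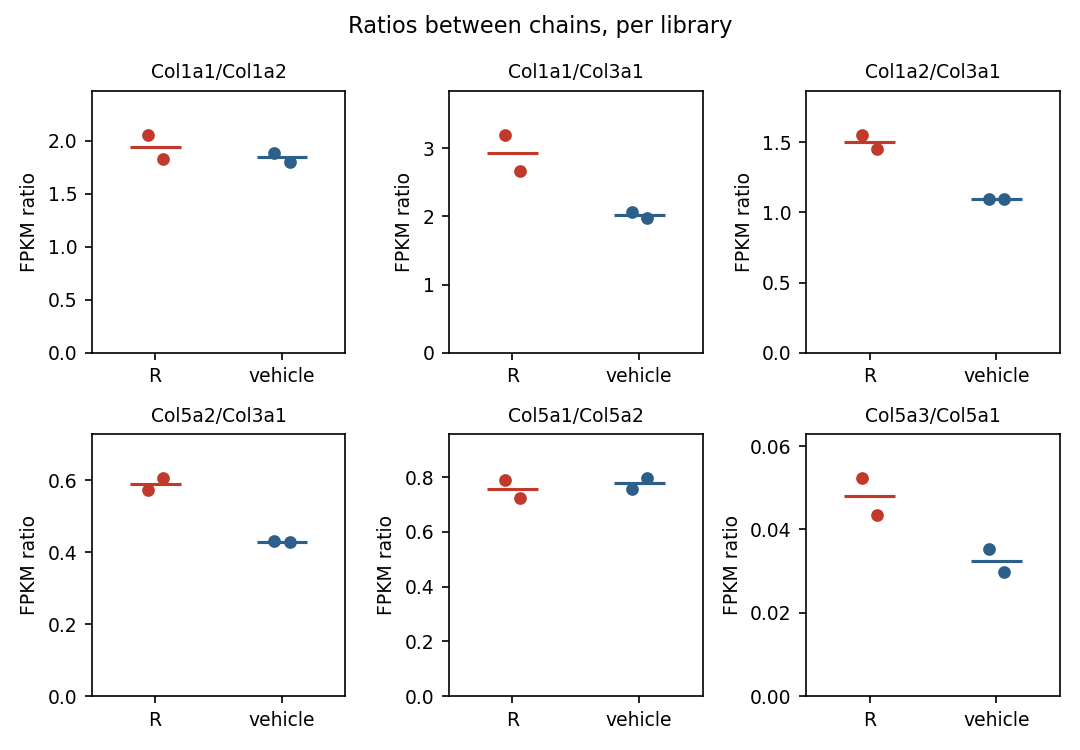
FPKM ratios of 6 pairs of chains in each library (points) with group means (lines, n = 2), R left and vehicle right. The 3 ratios over Col3a1 and that of Col5a3 to Col5a1 separate the groups, while the ratios within type I and between Col5a1 and Col5a2 overlap.

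Levels of different chains depend on the length each is divided by. The deposited values matched whole reads when the union of all annotated exons was used, which is 2.32 times as long as the main coding transcript for Col1a2 (12426 against 5348 bases), 1.76 times for Col3a1, 1.66 times for Col11a1, 1.45 times for Col5a2 and 1.11 times for Col1a1. In reads, Col1a1 and Col1a2 were nearly equal, with 107965 and 94337 reads for Col1a1 and 99267 and 97666 for Col1a2 in R, against 61611 and 61884 and 61758 and 64977 in vehicle. Divided by main transcript length, Col1a2 was the higher of the pair in all 4 libraries, and the ratio of Col1a1 to Col1a2 was 0.981 and 0.871 in R and 0.900 and 0.859 in vehicle. The order of the other chains did not change. Reads lying in the additional exons could not be set apart, so neither length gives the ratio of transcripts exactly.

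**Figure D4:**
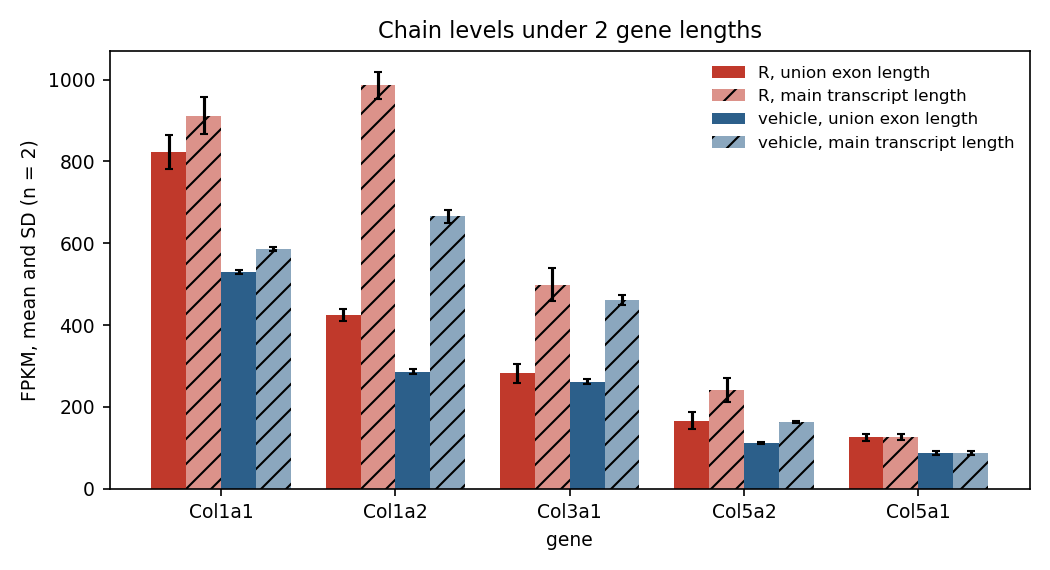
Mean FPKM and SD (n = 2) of the 5 most abundant chains in R (red) and vehicle (blue), with the deposited union exon length (solid) and the main coding transcript length (hatched). Col1a2 lies below Col1a1 with the first length and above it with the second.

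Genes that make, shape and bind the fibrils were read from the same fit, in lists described by counts beside the 0.345% of all tested genes called higher and 1.37% called lower. Of 15 tested genes of procollagen modification and folding, 0 were called and 14 had log2 fold changes above 0, as did 50% of all tested genes; the median was 0.16. An unadjusted p under 0.05 was found for 4, all of them higher, beside 16% of all tested genes in either direction, and P4ha3, a subunit of prolyl 4-hydroxylase, had the smallest p, at 20.1 and 20.2 FPKM in R, against 15.0 and 12.9 FPKM in vehicle. Serpinh1, the collagen chaperone HSP47, named after its values were seen, was at 625 and 543 FPKM in R, against 391 and 371 FPKM in vehicle. It was not called (limma, Benjamini-Hochberg adjusted p = 0.169), but passed in 5 of 15 alternatives. Of 8 procollagen export genes 0 were called, with a median of 0.01 and 0 at an unadjusted p under 0.05, and Mia2, a paralogue of the collagen export receptor, had the smallest p, at 5.69 and 6.75 FPKM in R, against 8.08 and 7.63 FPKM in vehicle. Of 10 genes of propeptide cleavage and crosslinking 0 were called, with a median of 0.21. Log2 fold changes were above 0 for 9 of them, beside 50% of all tested genes. An unadjusted p under 0.05 was found for 2 of the 10, near the share of all tested genes, with Loxl3 above and Loxl2 below its vehicle level. Loxl3, a lysyl oxidase homologue, had the smallest p there, at 42.2 and 41.3 FPKM in R, against 31.7 and 29.7 FPKM in vehicle.

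Among proteins of the fibril surface the calls went in both directions, while most fold changes were above 0. Of 16 tested, 1 was called higher and 2 lower, with a median of 0.28. Log2 fold changes were above 0 for 13, beside 50% of all tested genes. An unadjusted p under 0.05 (limma) was found for 8, 6 higher and 2 lower, beside 16% of all tested genes in either direction. Aspn, which encodes asporin, a small leucine-rich protein that binds collagen and calcium, was at 16.8 and 18.9 FPKM in R, against 8.36 and 6.63 FPKM in vehicle (log2 fold change 1.15; limma, Benjamini-Hochberg adjusted p = 0.0258). Its relatives Dcn and Lum, which encode decorin and lumican and limit fibril width, fell. Dcn was at 16.5 and 17.8 FPKM in R, against 36.7 and 34.3 FPKM in vehicle, and was no longer called with vehicle replicate 1 left out (adjusted p = 0.0566, limma) or on the TPM scale (adjusted p = 0.058, limma). Lum was at 0.889 and 0.926 FPKM in R, against 3.68 and 4.17 FPKM in vehicle. It thus passed the filter of 1 FPKM only through its vehicle level, which limits its call. Lum was not called without a filter on low values (adjusted p = 0.126, limma).

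Collagen receptors were also called in both directions. Of 6 tested, 1 was called higher and 1 lower, with a median of 0.30. Log2 fold changes were above 0 for 5 of the 6, beside 50% of all tested genes. An unadjusted p under 0.05 (limma) was found for 3, 2 higher and 1 lower, beside 16% of all tested genes in either direction. Ddr1, a receptor tyrosine kinase that binds fibrillar collagen, was at 29.4 and 31.0 FPKM in R, against 14.5 and 14.3 FPKM in vehicle (log2 fold change 1.02; limma, Benjamini-Hochberg adjusted p = 0.0165). Lair1, an inhibitory collagen receptor of immune cells, was at 4.39 and 4.58 FPKM in R, against 8.68 and 8.39 FPKM in vehicle (log2 fold change -0.80; limma, Benjamini-Hochberg adjusted p = 0.0387). Its lower libraries were also those with less of the macrophage markers, and the part of these was not tested. Lair1 was no longer called with vehicle replicate 1 or 2 left out (adjusted p = 0.161 or adjusted p = 0.0825, limma) or on the TPM scale (adjusted p = 0.102, limma).

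Among 10 tested genes of collagen degradation and uptake, 1 rose and 1 fell, with a median of 0.11. Their log2 fold changes were above 0 for 6 and below 0 for 4, beside 50% of all tested genes above 0. At an unadjusted p under 0.05 (limma) there were 3, 2 higher and 1 lower, beside 16% of all tested genes. Mmp13, a collagenase that cuts fibrillar collagen, was at 42.9 and 52.2 FPKM in R, against 177 and 190 FPKM in vehicle (log2 fold change -1.93; limma, Benjamini-Hochberg adjusted p = 0.00697). Mmp9, a gelatinase that cuts denatured collagen, was at 9.11 and 9.51 FPKM in R, against 3.33 and 3.94 FPKM in vehicle (log2 fold change 1.16; limma, Benjamini-Hochberg adjusted p = 0.0155). Of 12 genes of TGF-beta signalling, a pathway known to induce fibrillar collagens, 0 were called, with a median of 0.06. An unadjusted p under 0.05 was found for 3 of the 12, 2 with log2 fold changes above 0 and 1, Tgfbi, below 0, beside the 16% of all tested genes. Smad7, an inhibitor of the pathway, had the smallest p, at 9.28 and 10.002 FPKM in R, against 6.42 and 5.49 FPKM in vehicle.

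**Figure D5:**
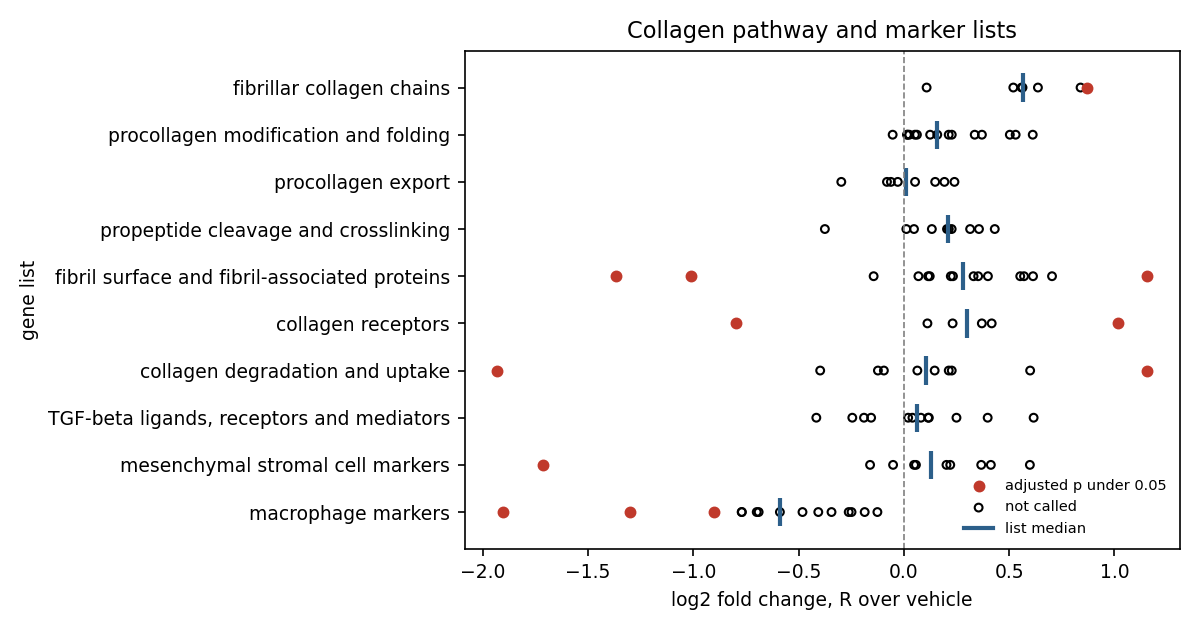
Log2 fold change of R over vehicle for each tested gene of the collagen pathway and marker lists, with filled red points for genes called at an adjusted p under 0.05, open points for the rest and blue bars for list medians. The chains have a median of 0.56, the 15 genes of procollagen modification 0.16, and the macrophage markers -0.59.

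By Euclidean distance between mean-centred log2(FPKM + 1) profiles over the 4 libraries, the protein-coding genes most like the mean of the 3 major chains were Tnks1bp1, Ccnb1 and Acadvl, of 10724 compared. Their distances were 0.028, 0.029 and 0.039, and their log2 fold changes 0.44, 0.44 and 0.46. Those most like the mean of the 4 minor chains were Ltbp2, Epha2 and Cad, at distances of 0.019, 0.045 and 0.049, with log2 fold changes of 0.71, 0.72 and 0.68. None of the 6 was called. With 4 libraries such likeness is a description only.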

How the data were processed

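The authors deposited 1 table of FPKM values, 1 column per library, per the file headers. Builds GRCm38 and mm10 and edgeR 3.18.1 are named per the submitters' processing notes, with no role given; the sources used here give no aligner, counting tool, annotation or filter. Its 10 unnamed columns were empty. Of 54532 gene identifiers 54495 matched GENCODE M21, which gave symbols and union exon lengths. FPKM times length gave whole reads, within 0.02, for 96.3 to 96.4% of nonzero values. The library sizes behind the values differed from recovered reads by factors of 0.981 to 1.029, relative to their geometric mean. Recovered reads leave out genes without whole reads in all 4 libraries, so these factors cannot tell whether the values carry a further scaling.

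Values were analysed as log2(FPKM + 1) for genes averaging at least 1 FPKM. limma 3.58.1 (R 4.3.3) was run with a variance trend and Benjamini-Hochberg adjustment over all tested genes at 0.05. Residual degrees of freedom were 2, and prior ones 3.83. A step on simulated data tested the scripts. The members and lists were chosen with earlier results of these data known. Named genes are all 7 members, every called gene of each pathway list and otherwise the gene with the smallest p, and 3 genes nearest in profile to each class. Chi-square per degree of freedom between replicates was 42.2 for R and 8.41 for vehicle, more than sampling noise. Alternatives covered pseudocounts, filters, scalings, variance models, a replicate block and each library left out.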

Additional observations from a re-analysis of the deposited data

How the results depend on the processing

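Every chain kept a positive log2 fold change under all alternatives. The ranges were 0.59 to 0.78 for Col1a1, 0.53 to 0.71 for Col1a2, 0.03 to 0.27 for Col3a1, 0.46 to 0.66 for Col5a1, 0.44 to 0.70 for Col5a2, 0.81 to 1.13 for Col5a3 and 0.62 to 1.06 for Col11a1. Calls moved more. The number of chains called, 1 in the fit reported, was 0 without a filter on low values and with a mean of at least 5 FPKM, which leaves Col5a3 out of the test. It was 2 on the TPM scale and 2 after quantile normalization, Col1a1 and Col5a3 in both, 2 with voom and 5 with the length correction, and 1 to 6 with a library left out. Genes called higher and lower were 0 and 0 without a filter (limma, 2767 at an unadjusted p under 0.05), with 83 higher by voom and 222 higher and 349 lower with the length correction. With a library left out they were 96 to 438 higher and 193 to 665 lower. Pathway genes called, 3 higher and 4 lower in the fit reported, were 0 and 0 without a filter, 5 and 2 on the TPM scale, 5 higher after quantile normalization and 9 higher with the length correction. With a library left out they were 3 to 10 higher and 2 to 6 lower. The minor minus major difference, 0.26, was 0.17 after quantile normalization and 0.34 with voom, and 0.20 to 0.33 with a library left out; it has no value with a mean of at least 5 FPKM. The cause of these shifts was not tested, except where fewer genes were tested.

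The titles number the replicates 1 and 2 in both groups, but nothing says that a number marks a shared source. Deviations of same-numbered libraries from their group means correlated at r = 0.353 across genes, which are not independent replicates. With the replicate number as a block, limma called 891 genes higher and 1009 lower, 5 chains (all but Col1a1 and Col3a1) and 14 pathway genes higher. That fit leaves 1 residual degree of freedom, and its prior ones were 91.3, against 3.83 in the fit reported. Its calls therefore rest mostly on the variance trend over all genes. In both fits without a vehicle replicate the prior degrees of freedom were infinite, so no variance of a single gene entered. Depth limits Col5a3 most, with 329 reads in its lowest library.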

Other observations

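Of 3 further fibrillar collagen chains looked at, Col11a2, Col24a1 and Col27a1, none was above 2 FPKM in any library. Col27a1, the only one of the 3 over the filter, was at 1.53 and 1.58 FPKM in R, against 1.44 and 1.55 FPKM in vehicle, and was not called (limma, Benjamini-Hochberg adjusted p = 0.934). Col24a1, a chain of developing bone, was under the filter at 0.238 and 0.210 FPKM in R, against 0.417 and 0.468 FPKM in vehicle, so both R libraries lay below both vehicle libraries, the opposite of the 7 chains above. It was not tested. Col11a2, the partner of Col11a1 in cartilage, was under the filter too, at 1.05 and 0.631 FPKM in R, against 0.697 and 0.547 FPKM in vehicle, and the groups overlapped.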
